A study of Homo sapiens with 12 samples.

Results

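The calmodulin-dependent kinases and CAMK2N1, the endogenous inhibitor of one of them, were examined in LNCaP cells given a FOXA1 plasmid or a GFP plasmid. The group holds 8 genes (CAMKK1, CAMKK2, CAMK1, CAMK2A, CAMK2B, CAMK2D, CAMK2G and CAMK2N1), chosen by gene symbol in the platform annotation. Of these, 7 had probes, 12 probes in all, among 47317 probes and 20044 named genes of the arrays; CAMK2B is not analysed here. LNCaP is a human prostate cancer line that responds to androgen. It was grown in medium with 10% fetal bovine serum, and the labels name no added androgen in either group. The cells of 6 arrays were transfected with full-length FOXA1 cDNA, those of the other 6 with GFP in the same vector, and total RNA was taken 48 h later and read on Illumina bead arrays. The transfection was transient, so a culture can hold cells without plasmid, and the labels give no share of transfected cells. The labels do not say whether replicates were separate cultures, and the p-values therefore rest on a spread between samples that may be technical.

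A rise in cytosolic calcium loads calmodulin, which then binds and opens these kinases. CAMKK1 and CAMKK2 sit at the top of a cascade and phosphorylate CAMK1, CAMK4 and, in the case of CAMKK2, the energy sensor AMPK. CaMKII, built from the subunits encoded by CAMK2A, CAMK2B, CAMK2D and CAMK2G, works apart from that cascade and stays active after the calcium signal ends, and CAMK2N1 binds it and blocks its activity. In prostate cancer cells CAMKK2 is known as an androgen-induced gene and CAMK2N1 as an androgen-repressed one, and FOXA1 is a pioneer factor for the androgen receptor, so the comparison asks whether a FOXA1 plasmid moved these genes.

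The promoters of the members are shown here for the motifs of FOXA1 and of the androgen receptor. RefSeq starts on GRCh38.p14 were found for 7 of the 8 members, in 8 entries, each read from 250 bases before the start to 50 after it. The promoter of CAMK2N1 could not be shown from the sources used here. The forkhead words TGTTTAC and TGTTTGC and the androgen receptor half-site TGTTCT were searched on both strands; none of them contains another. Among all 35116 promoters of this length, 3.42% held the first, 3.89% the second and 14.8% the third. The members' 8 entries held 0 matches of TGTTTAC, 1 of TGTTTGC (CAMK2A) and 1 of TGTTCT (CAMKK1), and CAMKK2 held none of the 3. The 250 bases before the CAMKK2 start, 82.8% G or C, are printed because CAMKK2 is the androgen-induced member, followed by both matches with the motif in capitals (AGAACA is TGTTCT on the other strand), all on the minus strand and 5′ to 3′.
CAMKK2, chr12:121296710-121296959: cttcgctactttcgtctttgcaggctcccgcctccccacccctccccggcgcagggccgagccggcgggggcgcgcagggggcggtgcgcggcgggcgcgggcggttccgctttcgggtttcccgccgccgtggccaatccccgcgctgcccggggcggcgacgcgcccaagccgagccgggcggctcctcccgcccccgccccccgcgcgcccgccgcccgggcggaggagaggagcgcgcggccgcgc
CAMK2A, chr5:150289724-150289753: tcaaaccggttctcTGTTTGCactcggcag
CAMKK1, chr17:3890723-3890752: aggcctggcagcAGAACAgagtatgcaatt

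Values below are normalized intensities on a log2 scale, as the authors deposited them, and differences are FOXA1 minus GFP on that scale. The level of 7.54, the 95th percentile of 784 probes present only in the non-normalized table, served as a background estimate. What these probes are is not stated in the labels or headers, so above and below background refer to this level only. Before normalization the array medians lay between 7.31 and 7.63. FOXA1 itself, read by 1 probe, had a mean of 13.43 ± 0.13 (SD, n = 6) with the FOXA1 plasmid and of 13.30 ± 0.16 (SD, n = 6) with GFP. The difference of 0.13 was within the spread between arrays (two-sided exact permutation p = 0.165), with 2 FOXA1 arrays higher than all GFP arrays. Which part of the transcript this probe covers is not given in the sources used here. Markers of luminal prostate cells were above background for 7 of 7 measured genes, with means from 9.08 to 12.99, and basal markers for 0 of 3. Stromal markers were above it for 3 of 6 (ACTA2 at 9.89, VIM at 9.48 and COL1A1 at 7.54), leukocyte markers for 3 of 5, none above 7.62, and neuronal and neuroendocrine markers for 1 of 7 (ENO2 at 9.31). GFP 3, FOXA1 4 and FOXA1 3 lay farthest to one side of the leading component of the values centred by group, which held 44.2% of their variance, at 33.70, 31.97 and 21.99. GFP 6 followed at 14.2, nearer to FOXA1 3 than to the next array, FOXA1 6, at -3.29. Results are also given without the first 3, a set taken from earlier results, and without all 4, a set chosen after these values were seen.

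None of the 12 member probes passed a test between the groups. In limma, 0 of 12 passed an adjusted p of 0.05, and neither did any of the 47317 probes (0%). At an unadjusted p under 0.05 there were again 0 member probes in this fit, which has no replicate block, where 3.17% of all probes (1502) and 1.99% of named genes above background lay under that value. The groups overlapped for every member probe, and failed to overlap for 0.12% of all probes. Among the 7 highest-mean probes, 4 were higher and 3 lower with FOXA1, and their median difference of 0.00866 stood beside 0.00654 over all named genes. For the 11 probes other than that of CAMK2N1, differences ran from -0.09 to 0.12, and every 95% interval left out a change of more than 1.28-fold in intensity in either direction. Of these 11, 8 averaged below the background estimate, where an intensity need not follow the transcript.

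**Figure D1:**
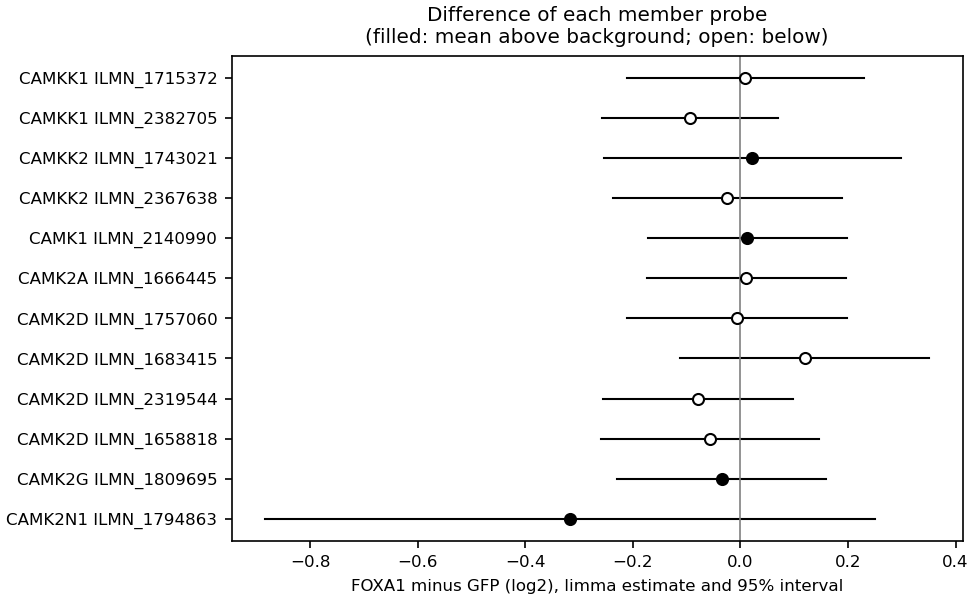
FOXA1 minus GFP difference on the log2 scale (horizontal axis) for each of the 12 member probes, with limma's 95% interval; filled points have a mean above the background estimate, open points below it. Every interval includes 0, and that of CAMK2N1, from -0.88 to 0.25, is the widest.

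CAMKK2, the upstream kinase, lay just above background, with group means 0.02 apart. Its brighter probe (ILMN_1743021) had a lowest, median and highest value of 7.49, 8.02 and 8.51 in the FOXA1 arrays. The same values were 7.69, 8.03 and 8.14 in the GFP arrays. Both the lowest (FOXA1 5) and the highest (FOXA1 4) of the 12 arrays were FOXA1 arrays, and all GFP arrays fell between them. The means were 8.0 ± 0.33 (SD, n = 6) and 7.98 ± 0.18 (SD, n = 6), a difference of 0.02 with a 95% interval from -0.25 to 0.30 (limma adjusted p = 1.00; exact permutation p = 0.896, two-sided). Without GFP 3, FOXA1 3 and FOXA1 4 the difference was -0.09, and without GFP 6 as well -0.041. The other CAMKK2 probe (ILMN_2367638) averaged 7.49, below the background estimate, with a difference of -0.02. It was lowest, at 7.05, on FOXA1 4, the array on which the brighter probe was highest.

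CAMKK1, the other upstream kinase, was not above background in its mean. Its brighter probe ran from 6.99 to 7.62 in the FOXA1 arrays and from 7.27 to 7.59 in the GFP arrays, and 4 of 12 arrays were above the background estimate. The difference was 0.00866, and that of its dimmer probe, whose values never reached the background estimate, was -0.09. CAMK1, a kinase that CAMKK1 and CAMKK2 activate, was above background on all 12 arrays. Its lowest, median and highest values were 9.16, 9.26 and 9.66 in the FOXA1 arrays and 9.16, 9.29 and 9.46 in the GFP arrays, so the groups overlapped. FOXA1 4 stood at the top of the CAMK1 values. The difference was 0.01 with a 95% interval from -0.17 to 0.20.

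Among the CaMKII subunits, only the gamma subunit CAMK2G was above the background estimate, of the 3 subunits measured. Its lowest, median and highest values were 9.19, 9.42 and 9.58 in the FOXA1 arrays and 9.26, 9.40 and 9.69 in the GFP arrays. The difference was -0.04 with a 95% interval from -0.23 to 0.16, and the groups overlapped. The delta subunit CAMK2D, broadly expressed in other tissues, had 4 probes with means from 6.92 to 7.37, all below the background estimate. Differences of these probes were -0.00606, 0.12, -0.08 and -0.06, from the brightest to the dimmest. The alpha subunit CAMK2A, known as the neuronal form, ran from 6.44 to 6.82 in the FOXA1 arrays and from 6.45 to 6.81 in the GFP arrays, and 0 of 12 arrays reached the background estimate.

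**Figure D2:**
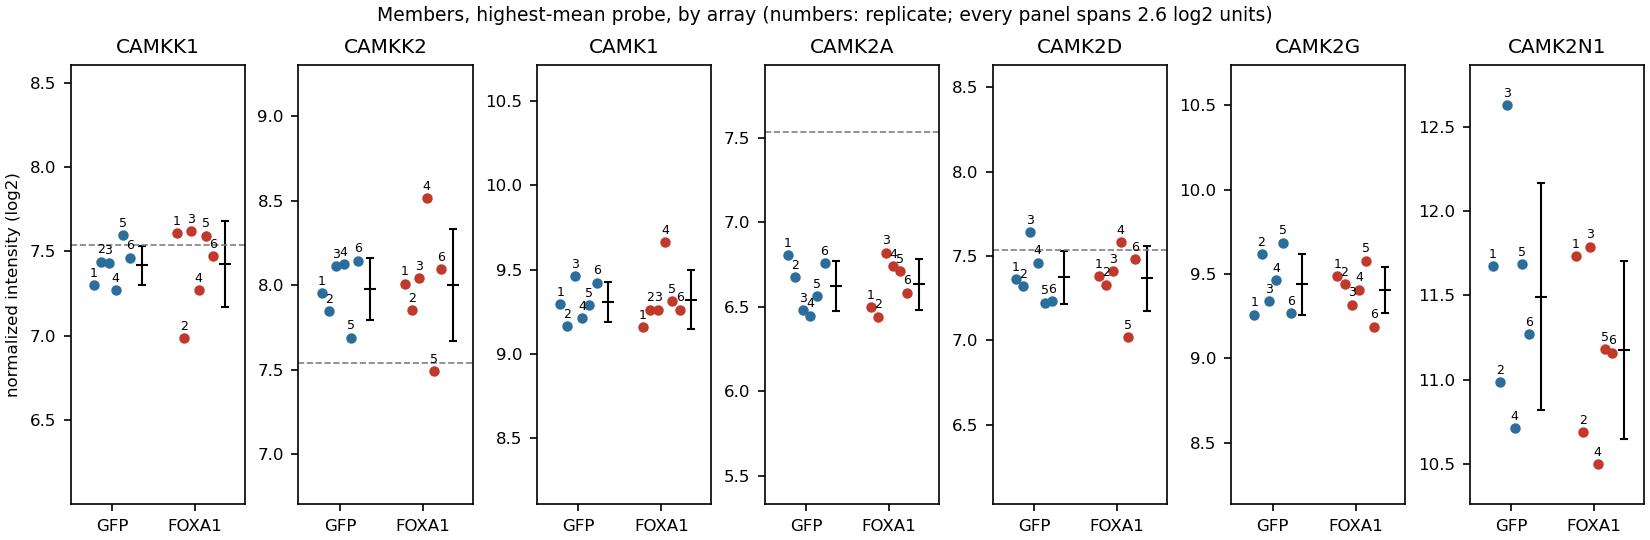
Normalized intensity (log2, vertical axis) of the highest-mean probe of the 7 measured members by array, GFP in blue and FOXA1 in red, with replicate numbers beside the points, mean and SD as black bars, and the background estimate of 7.54 as a dashed line where it falls in the panel. Each panel has its own level but the same span, in which CAMK2N1 shows the widest scatter, from 10.50 on FOXA1 4 to 12.63 on GFP 3.

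CAMK2N1, the CaMKII inhibitor, was above background on all 12 arrays and was the member that varied most. Its lowest, median and highest values were 10.50, 11.17 and 11.79 in the FOXA1 arrays. In the GFP arrays they were 10.72, 11.47 and 12.63. GFP 3 stood highest and FOXA1 4 lowest, 4.37-fold apart, and 2 of the 6 FOXA1 arrays lay below every GFP array. The means were 11.18 ± 0.53 (SD, n = 6) and 11.49 ± 0.67 (SD, n = 6), which leaves a difference of -0.32 (SE 0.27; 95% interval from -0.88 to 0.25; limma adjusted p = 1.00; exact permutation p = 0.405, two-sided). In this fit without a replicate block, the difference did not exceed the spread between arrays of a group, and the interval leaves room for a fall of up to 1.85-fold. Part of that spread went with the replicate number, since both groups were lowest on number 4 and highest on number 3. With the number as a block, the standard error was 0.10 and the 95% interval from -0.54 to -0.10 (limma unadjusted p = 0.00736, adjusted p = 0.999). Without the block, the difference was -0.09 without GFP 3, -0.18 without FOXA1 4, and -0.07 without GFP 3, FOXA1 3 and FOXA1 4, with or without GFP 6. The SD within groups, 0.60, was above that of 99.3% of the 10581 named genes above background, whose median was 0.19. That of CAMKK2, 0.27, was above 81.2% of them.

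The ratio of CAMKK2 to CAMK2N1, which sets the androgen-induced member against the androgen-repressed one within each array, was described without a test. On the log2 scale it averaged -3.18 ± 0.70 (SD, n = 6) with FOXA1 and -3.52 ± 0.70 (SD, n = 6) with GFP, 0.34 apart. It ran from -3.75 to -1.99 and from -4.52 to -2.59, and 1 of the 6 FOXA1 arrays, FOXA1 4, lay above every GFP array. The level of the ratio itself compares different probes and has no meaning between genes.

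No opposed movement of the 2 genes across arrays passed a test. With values centred by group, Pearson's r of CAMKK2 against CAMK2N1 over 12 arrays was -0.15 (permutation p = 0.646, adjusted 0.711) and Spearman's rho -0.25 (permutation p = 0.431, adjusted 0.677); p-values were adjusted over 11 relations. The sign turned without FOXA1 4 and FOXA1 5, the arrays farthest from the median of CAMKK2 (r = 0.14, permutation p = 0.707). Without GFP 3, FOXA1 3 and FOXA1 4 it was -0.14 (n = 9, exact permutation p = 0.714), and without GFP 6 as well -0.15 (n = 8, exact permutation p = 0.717). Within the 6 FOXA1 arrays r was -0.29 (exact permutation p = 0.604) and within the 6 GFP arrays 0.01 (exact permutation p = 0.983).

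**Figure D3:**
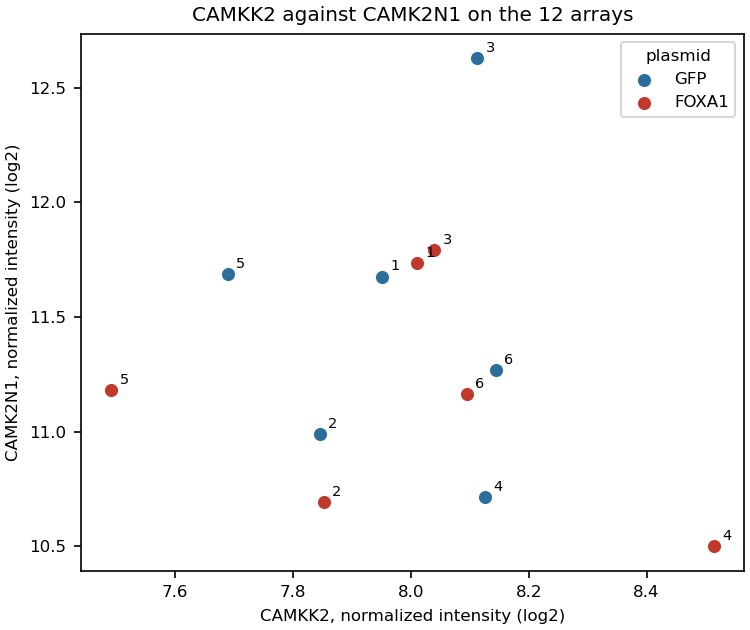
CAMK2N1 (vertical axis) against CAMKK2 (horizontal axis), both as normalized log2 intensity of the highest-mean probe, for the 12 arrays, GFP in blue and FOXA1 in red, with replicate numbers. Pearson's r is -0.29 within the FOXA1 arrays and 0.01 within the GFP arrays, and FOXA1 4 (8.51 and 10.50) and GFP 3 (8.11 and 12.63) lie at the edges.

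The other relations set both genes against FOXA1, against KLK3, TMPRSS2 and FKBP5, all known androgen-induced genes, and against the mean of 18 hypoxia and glycolysis genes, whose mean ran from -0.36 to 0.82 around its value over all arrays. CAMKK2 went with TMPRSS2 (r = 0.65, permutation p = 0.0183, adjusted 0.102; rho = 0.76, permutation p = 0.00646, adjusted 0.0355). Without FOXA1 4 and FOXA1 5, r was 0.59 (permutation p = 0.0727), and it was 0.63 within the FOXA1 arrays (exact permutation p = 0.188) and 0.73 within the GFP arrays (exact permutation p = 0.0944). TMPRSS2 was highest on FOXA1 4, FOXA1 3 and GFP 3, at 13.82, 13.74 and 13.55, against 12.44 to 13.10 on the other 9 arrays. On those 9 arrays, an alternative added after these values were seen, r fell to 0.41 (exact permutation p = 0.263) and rho to 0.60 (exact permutation p = 0.0968), and without GFP 6 as well r was 0.27 (n = 8, exact permutation p = 0.514). Leaving out the arrays highest in TMPRSS2 also narrows its range, so this fall does not show whether the relation rested on them. CAMKK2 stands here for its brighter probe only. The dimmer probe, whose mean lay below the background estimate, was lowest on FOXA1 4 (7.05), where TMPRSS2 was highest. Its relations with TMPRSS2 and the hypoxia mean were not tested. CAMKK2 also ranked with the hypoxia mean (rho = 0.79, permutation p = 0.00331, adjusted 0.0355), with a weaker linear relation (r = 0.54, permutation p = 0.0755, adjusted 0.271). Both relations passed 0.05 after adjustment by rank and not by Pearson's r. The permutations treated arrays as independent. Same-numbered FOXA1 and GFP arrays had similar hypoxia means (0.72 and 0.82 on number 3, -0.34 and -0.33 on number 5). Permutation p-values here may therefore be too small. With the replicate number as a block, r of CAMKK2 with the hypoxia mean was 0.51 (permutation p = 0.0866). Under the block, same-numbered arrays hold mirrored values, which the permutation shuffled as if independent, so this p-value is also too small. With no block, r was 0.56 without FOXA1 4 and FOXA1 5 (permutation p = 0.0898), 0.53 within the FOXA1 arrays (exact permutation p = 0.293) and 0.63 within the GFP arrays (exact permutation p = 0.153). On the 9 arrays it was 0.73 (exact permutation p = 0.0221) and rho 0.85 (exact permutation p = 0.00607). Without GFP 6 as well r was 0.76 (n = 8, exact permutation p = 0.0256) and rho 0.88 (exact permutation p = 0.00724). These p-values are not adjusted over the relations.

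CAMK2N1 went with KLK3, which encodes prostate-specific antigen, in the same direction and not the opposite one. The r was 0.66 (permutation p = 0.0185, adjusted 0.102) and rho 0.41 (permutation p = 0.183, adjusted 0.673), so the relation did not pass after adjustment. It was 0.65 without GFP 3 and GFP 4 (permutation p = 0.0394), 0.55 within the FOXA1 arrays (exact permutation p = 0.283) and 0.73 within the GFP arrays (exact permutation p = 0.117). On the 9 arrays without GFP 3, FOXA1 3 and FOXA1 4 it was 0.18 (exact permutation p = 0.66), and without GFP 6 as well 0.19 (n = 8, exact permutation p = 0.709), so the relation no longer held without them. GFP 3 had the highest CAMK2N1 (12.63), the highest KLK3 (11.02) and the highest hypoxia mean (0.82 above the mean of all arrays). FOXA1 3 had the highest of the FOXA1 arrays in all 3, at 11.79, 10.72 and 0.72. The part of these hypoxia genes in the CAMK2N1 values was not tested; r of CAMK2N1 against the hypoxia mean was 0.47 (permutation p = 0.123, adjusted 0.271) with rho 0.20 (permutation p = 0.544), and r was -0.31 on the 9 arrays (exact permutation p = 0.422). None of the other 6 relations passed, with r from -0.49 for CAMK2N1 against FKBP5 to 0.23 for CAMK2N1 against TMPRSS2. Of these, CAMKK2 against FKBP5 had r = -0.75 on the 8 arrays without GFP 3, GFP 6, FOXA1 3 and FOXA1 4 (exact permutation p = 0.0308, not adjusted), against -0.26 on all 12.

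**Figure D4:**
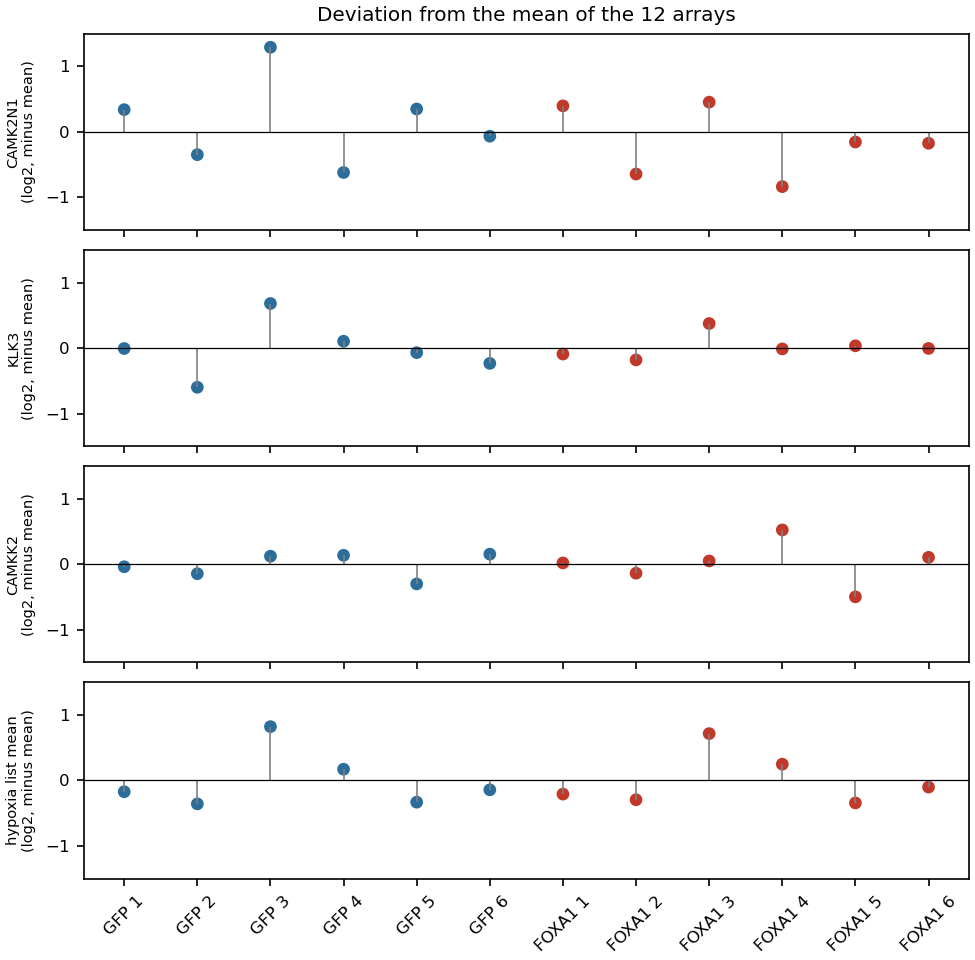
Deviation of CAMK2N1, KLK3, CAMKK2 and the hypoxia list mean from their mean over the 12 arrays (log2, vertical axes of equal span), by array, GFP in blue and FOXA1 in red. GFP 3 is highest in CAMK2N1, KLK3 and the hypoxia mean, while CAMKK2 is highest on FOXA1 4 and lowest on FOXA1 5.

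The genes with the most similar pattern were listed for both, as a description over 12 arrays of one platform and one cell line, among 10580 other named genes above background and with values centred by group. For CAMKK2 the highest Pearson r belonged to CSPG5 (0.93), ZNF605 (0.92), RCC1 (0.92), AKAP10 (0.91) and WDR27 (0.91). The lowest belonged to LOC105370941 (-0.93), IFIT3 (-0.92) and AKR1C4 (-0.92). For CAMK2N1 the highest belonged to RPL23A (0.92), PTGER4 (0.90), MYOG (0.89), CTNND1 (0.87) and CUX1 (0.84), and the lowest to ZMYM1 (-0.92), ECHS1 (-0.91) and SEPTIN6 (-0.90). RPL23A has many near-identical copies in the genome, and its probe may read more than 1 of them. MYOG, with a mean of 7.55, and LOC105370941, with 7.64, lay close to the background estimate. All these genes are the extremes of 10580 compared over 12 arrays, and their r was not tested.

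Other genes of calcium and calmodulin signalling did not pass the test either. Of 60 listed genes 55 were measured, 36 above the background estimate, and 0 passed an adjusted p of 0.05 in limma (0% of named genes); 0 had an unadjusted p under 0.05, beside 2.67% of named genes. Of the 55, 33 were higher and 22 lower, with a median of 0.03, where 52.8% of all named genes were higher. In each list, the 2 genes above background with the smallest p are named here as values.

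Among relatives of the members, 8 of 10 were higher and 2 lower, with a median of 0.05. EEF2K, a calmodulin-dependent kinase that phosphorylates the elongation factor eEF2, differed by 0.07, and DAPK1, a calmodulin-regulated death-associated kinase, by 0.02. Both phosphatases known to switch CaM kinases off were above background, PPM1E at a difference of -0.14 and PPM1F at 0.04. In the AMPK and LKB1 list, the branch downstream of CAMKK2, 6 of 10 genes were higher and 4 lower, with a median of 0.04. PRKAG2, a regulatory gamma subunit of AMPK, differed by 0.10, and 4 FOXA1 arrays exceeded all GFP arrays, while STRADA, a partner of the kinase LKB1, differed by 0.09.

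Calcineurin and NFAT genes, the phosphatase arm of calcium signalling, were higher in 6 of 12 cases and lower in 6 (median 0.02). RCAN1, an inhibitor of calcineurin, differed by 0.16 and the transcription factor NFATC3 by -0.14. Of the nuclear targets of CaM kinases 1 of 8 was higher and 7 lower, with a median of -0.04. CREB1, a transcription factor that CaM kinases phosphorylate, averaged 12.64 ± 0.23 (SD, n = 6) with FOXA1 and 12.92 ± 0.47 (SD, n = 6) with GFP (difference -0.28, SE 0.17), and its coactivator CRTC1 differed by 0.08. Of the genes of calcium entry, release and pumping 11 of 13 were higher and 2 lower, with a median of 0.07. STIM1, the calcium sensor of the endoplasmic reticulum, differed by 0.21 with a standard error of 0.21, and the plasma membrane pump ATP2B1 by -0.11.

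**Figure D5:**
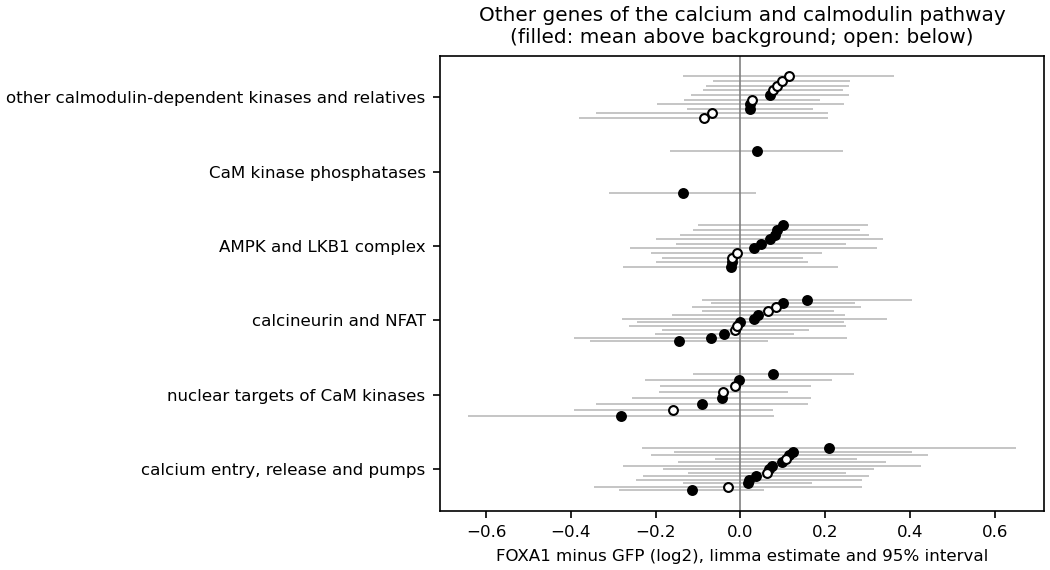
FOXA1 minus GFP difference on the log2 scale (horizontal axis) with limma's 95% interval for the 55 measured genes of 6 lists around the members; filled points have a mean above the background estimate, open points below it. Every interval includes 0, and the estimates run from -0.28 (CREB1) to 0.21 (STIM1).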

How the data were processed

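Each of the 12 arrays is in 2 tables of log2 values deposited by the authors, a non-normalized one, per the file headers (48107 probes), and a normalized one (47323 probes). In the second, all column medians lay between 7.428 and 7.429 and probes kept their rank order. No label or header names the programs for background, summary and normalization. Values were missing for 6 probes, which were dropped. Probes were named from the platform annotation, where 30110 tested probes had 1 symbol, 8 probes had several and 17202 were unlisted; for each gene the probe with the highest mean was the main one. Groups and replicate numbers came from the array titles. Groups were compared on the deposited normalized values with lmFit and eBayes of limma 3.58.1 (R 4.3.3; two-sided, no covariate, Benjamini-Hochberg over all 47317 probes, threshold 0.05). No filter was applied. Single values were also tested by exact permutation over 924 arrangements of 6 against 6 arrays, for which the smallest p is 0.00216, and relations across arrays with 100000 permutations (exact within groups), with NumPy 2.4.6 and SciPy 1.17.1. The probes found only in the non-normalized table were brought to the normalized scale by interpolation on each array. The fit was checked on simulated data made from the residuals of these arrays, with changes placed in probes above background. It recovered 7.2% of 1.25-fold, 64.8% of 1.5-fold and 95.6% of 2-fold changes, so small changes would mostly be missed. These shares are averages over 50 probes of each size, changed in the same run and drawn without regard to their spread. They do not hold for CAMK2N1, whose SD within groups (0.60) was above that of 99.3% of named genes above background. Recovery at such a spread was not simulated. Precision depends on how many arrays there are and on the spread of each probe, and a probe's 95% interval had a median half-width of 0.19. Besides the members, the named genes were FOXA1, the 2 genes with the smallest p above background in each pathway list, and the 5 most and 3 least similar genes. The members, lists and tests were chosen with earlier results of these data known. Some listed genes are not analysed here.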

Additional observations from a re-analysis of the deposited data

Results flagged for a closer look

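A sample that stood far from the other 5 of its group was sought in 56 groups of 6 arrays (28 probes), and 3 were found. Chance gives about 1 in 20 groups, so the number found is near what chance alone would give. For the dimmer CAMKK2 probe, FOXA1 4 was lowest at 7.05, with the other FOXA1 arrays between 7.48 and 7.62 (gap over range 0.756). For CAMK1, FOXA1 4 was highest at 9.66, with the others between 9.16 and 9.32 (0.691). For PRKAG2, GFP 3 was lowest at 8.18, with the other GFP arrays between 8.56 and 8.63 (0.829). FOXA1 4 and GFP 3 were also the arrays farthest along the leading component of the values centred by group, which held 44.2% of their variance.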

How the results depend on the processing

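No member passed the threshold under any of the 23 alternative fits (lowest adjusted p in limma 0.994), and 0 probes passed in each, with 1311 to 1942 probes at an unadjusted p under 0.05 where all probes and 11 or 12 arrays were used. CAMK2N1 kept its negative sign in all 23, and with single arrays left out it ran from -0.47 (without GFP 4) to -0.090 (without GFP 3). Differences near 0 changed sign, and the cause was not tested. With median centring CAMK2A was -0.019 and CAMK2G 0.028; with array weights CAMK1 was -0.00153, CAMK2A -0.00916 and CAMK2D 0.00117; with GFP 3, FOXA1 3 and FOXA1 4 left out CAMKK2 was -0.089, CAMK1 -0.027 and CAMK2A -0.091; with GFP 6 left out too CAMKK2 was -0.041 and CAMK2A -0.064; with a mean over probes CAMKK1 was -0.043 and CAMKK2 -0.00106. With single arrays left out, CAMKK2 ran from -0.080 to 0.12, CAMKK1 from -0.030 to 0.10, CAMK1 from -0.055 to 0.045, CAMK2A from -0.027 to 0.049, CAMK2D from -0.049 to 0.064 and CAMK2G from -0.071 to 0.014. The r of CAMKK2 against CAMK2N1 ran from -0.35 (without GFP 3) to 0.15 (without FOXA1 4), and was 0.011 within the GFP arrays, 0.14 without the 2 arrays farthest in CAMKK2 and 0.40 with a replicate block (permutation p = 0.197). Same-numbered arrays deviated together in 5 of 6 numbers and not for number 4 (r = -0.35), and 2 of 6 FOXA1 arrays correlated best with their own number. In the members' own values, both groups had their lowest CAMK2N1 on number 4 and their lowest CAMKK2 on number 5. The labels do not say that the numbers pair the arrays, and the main fit left them unpaired. Whether same-numbered arrays share a culture or a batch was not tested. With the replicate number as a block in limma, 0 probes passed and 1690 had an unadjusted p under 0.05. In that replicate block fit CAMK2N1 was -0.32 with a standard error of 0.10 in place of 0.27 and a 95% interval from -0.54 to -0.10, which leaves out 0 (limma unadjusted p = 0.00736, adjusted p = 0.999). It was lower in the FOXA1 array of 5 of 6 numbers. With the block, r of CAMK2N1 was -0.66 with FOXA1 (permutation p = 0.0209) and -0.69 with FKBP5 (permutation p = 0.0142), against 0.11 and -0.49 without it. That of CAMKK2 with TMPRSS2 was 0.67 (permutation p = 0.018), against 0.65. No other of the 11 relations had a block permutation p under 0.05. The r of CAMK2N1 with KLK3 was 0.37 (permutation p = 0.238), against 0.66. These block permutation p-values are unadjusted and take no account of the degrees of freedom the block uses. Under the block, same-numbered arrays hold mirrored values, which the permutations shuffled as if independent. All block permutation p-values, that of CAMKK2 against CAMK2N1 included, are therefore too small, and none was counted as a pass. Signal near background limits CAMKK1, CAMK2A, CAMK2D and, in part, CAMKK2.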
